A study of Mus musculus with 5 samples.

Results

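The 10 matrix genes Vcan, Has2, Hapln1, Dcn, Lum, Bgn, Fmod, Prelp, Ogn and Hspg2 were picked by name out of the 31053 genes of the count tables, for the matrix they build. They were picked with earlier results of these data known, so the counts of genes called are not those of a blind choice. They were followed across granulosa stages, mesenchymal subtypes and ages in the mouse ovary. The cells came from dissociated ovaries of C57BL6/J mice at 2, 3, 4, 5 and 6 wk. No allele was changed and no animal was treated, the number of animals behind a library was not given in the sources used here, and each age was 1 droplet library of live-sorted cells, made with a 3′ kit that counts transcripts by unique molecular identifiers (UMIs). With 1 library per age there was no replicate of any age, so no difference was tested, and the intervals given are counting intervals that leave out the spread between animals.

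Hyaluronan is a long sugar chain that hyaluronan synthases such as Has2 spin out at the plasma membrane. The large proteoglycan versican (Vcan) binds it, and link protein (Hapln1) locks the pair together. This is the matrix that swells around the oocyte when the cumulus expands before ovulation. The small leucine-rich proteoglycans decorin (Dcn), biglycan (Bgn), lumican (Lum), fibromodulin (Fmod), Prelp and osteoglycin (Ogn) sit on collagen fibres and set how they assemble, and perlecan (Hspg2) is a heparan sulfate proteoglycan of basement membranes, the sheets that wrap each follicle and each vessel.

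Several of these genes are close neighbours on GRCm38. Hapln1 (chr13:89539796-89611652, plus strand) and Vcan (chr13:89655312-89742509, minus strand) lie 43.659 kb apart. Dcn (chr10:97479609-97518143, plus strand) and Lum (chr10:97565128-97572703, plus strand) lie 46.984 kb apart, and Prelp (chr1:133910304-133921414, minus strand) and Fmod (chr1:134037254-134048277, plus strand) lie 115.839 kb apart. Ogn (chr13:49608046-49624501, plus strand) sits beside Omd and Aspn, also genes of small leucine-rich proteoglycans. Has2 (chr15:56665627-56694539, minus strand), Bgn (chrX:73483602-73495933, plus strand) and Hspg2 (chr4:137468769-137570630, plus strand) have no other member beside them.

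The 250 bases before the start site are shown for 4 genes that stand for the patterns described here: Vcan for the granulosa cells, Bgn and Fmod for the stroma, and Ogn for the smooth muscle. The sequences are those of RefSeq on GRCm38.p6, for which 7 of the 10 genes matched, each written 5′ to 3′ on the strand of its gene. Capitals mark matches, on either strand, to any of 4 short motifs. A GC box was searched as GGGCGG and was held by 32.7% of the 32851 such windows over all genes. The TATA box was searched as TATAAA and was held by 12.4% of them. For TEAD factors the letters were GGAATG, found in 12.6%. For AP-1 they were TGANTCA, found in 6.75%.
Vcan, chr13:89742513-89742762, minus strand: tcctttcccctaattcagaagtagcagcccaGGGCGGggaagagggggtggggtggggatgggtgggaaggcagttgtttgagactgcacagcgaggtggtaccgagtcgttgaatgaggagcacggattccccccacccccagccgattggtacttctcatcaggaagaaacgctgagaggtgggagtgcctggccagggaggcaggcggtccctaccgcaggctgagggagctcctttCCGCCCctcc
Bgn, chrX:73483351-73483600, plus strand: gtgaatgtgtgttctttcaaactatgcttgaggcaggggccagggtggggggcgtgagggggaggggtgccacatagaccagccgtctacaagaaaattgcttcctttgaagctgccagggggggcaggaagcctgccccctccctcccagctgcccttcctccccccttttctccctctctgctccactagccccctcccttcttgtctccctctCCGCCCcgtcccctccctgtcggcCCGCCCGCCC
Fmod, chr1:134037004-134037253, plus strand: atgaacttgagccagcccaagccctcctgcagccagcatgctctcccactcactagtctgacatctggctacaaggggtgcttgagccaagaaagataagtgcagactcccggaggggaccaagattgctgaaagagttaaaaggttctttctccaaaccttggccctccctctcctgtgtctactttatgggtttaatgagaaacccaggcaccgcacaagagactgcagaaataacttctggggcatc
Ogn, chr13:49607765-49608014, plus strand: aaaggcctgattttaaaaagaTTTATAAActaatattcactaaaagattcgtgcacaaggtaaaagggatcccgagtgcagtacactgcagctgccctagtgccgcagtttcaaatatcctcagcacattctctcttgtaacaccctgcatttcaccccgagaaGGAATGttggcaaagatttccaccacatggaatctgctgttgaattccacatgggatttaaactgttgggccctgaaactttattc
The windows of Vcan and Bgn were rich in G and C, at 62.4% and 64.4%, and held 2 and 3 GC boxes, of which a pair overlapped in Bgn. The Fmod window had a GC content of 51.2% and none of the 4 motifs. The Ogn window was the poorest of these in G and C, at 42.0%, with 2 overlapping TATA matches on opposite strands and 1 TEAD match. Each match is a run of letters only, and none was read as a site that is bound.

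The 5 libraries held 48163 cells in all, 7779 to 11077 per library, with 93438618 to 144609431 UMIs and a median of 9056 to 12424 UMIs per cell. Cells were clustered with the 10 genes removed from the genes that drive the clustering, and clusters were named from marker genes that include none of them. The largest classes were granulosa-like (18320 cells) and stromal-like (14015 cells), followed by smooth muscle-like (4056 cells) and theca-like (1249 cells), and 7812 cells stayed unnamed. Pairs of libraries shared 18 to 35 cell barcodes. The level of a gene is given throughout in CPM, its UMIs over all UMIs of the cells in a group scaled to 1000000, with ages in the order 2, 3, 4, 5 and 6 wk. Because reads come from the 3′ end, a CPM compares groups for the same gene, not the levels of different genes. In a whole ovary, a lower level could mean fewer cells of a type or less RNA in each, but a level within a named group is a share of that group's own RNA.

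**Figure D1:**
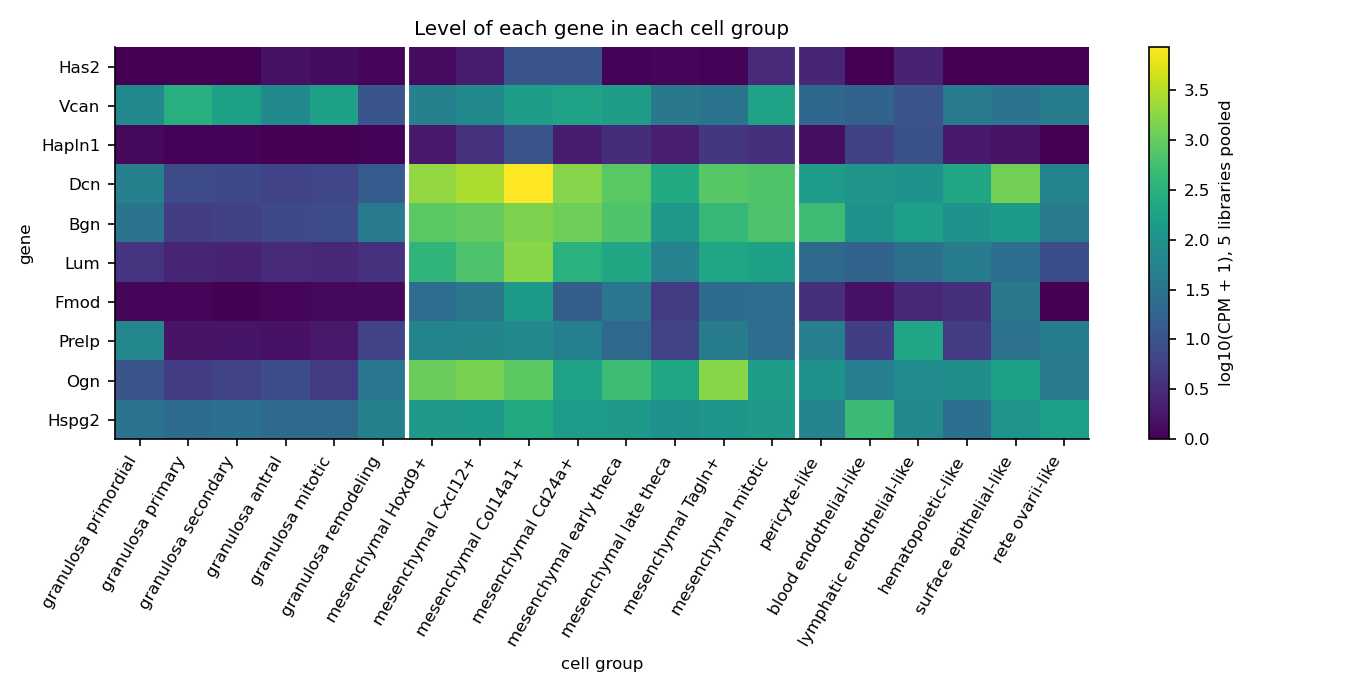
Heat map of the pooled level of each of the 10 genes (rows) in each granulosa stage, mesenchymal subtype and other cell class (columns), as log10(CPM + 1) over all 5 libraries. Vcan is bright in granulosa and mesenchymal columns alike, whereas Dcn, Lum, Bgn, Fmod and Ogn are darker in the granulosa columns than in the mesenchymal ones.

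Stromal and granulosa cells differed in nearly the whole set. Every gene but Vcan was more than 2-fold higher in stromal-like than in granulosa-like cells in each of the 5 libraries, which is 9 of 10 genes against 10.9% of the 13975 genes tested for that direction and 20.1% for either direction. The median ratio over the libraries was 83.7 for Lum (74.0 to 101), 82.2 for Dcn (49.6 to 155), 80.5 for Fmod (62.0 to 125), 48.7 for Bgn (34.7 to 75.1) and 43.3 for Ogn (33.3 to 55.4). It was 34.4 for Hapln1 (9.33 to 46.0), 19.7 for Prelp (2.17 to 31.4), 11.7 for Has2 (5.33 to 22.6) and 5.28 for Hspg2 (3.81 to 6.41). The granulosa-like levels behind some of these were low in counts, with 8, 5, 1, 2 and 4 UMIs of Hapln1. Those of Has2 were 4, 10, 33, 10 and 12 UMIs. The lowest Prelp ratio, of the 2 wk library, was close to the threshold, and the Prelp call was lost under 3 other ways of processing. The Hapln1 call was lost when the level in hematopoietic-like cells was subtracted as background.

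Vcan was the exception. Its level in granulosa-like cells was 334, 161, 63.7, 98.0 and 108 CPM, and in stromal-like cells 211, 100.1, 79.3, 124 and 86.1 CPM. The ratio of stromal over granulosa cells ran from 0.620 to 1.26 and was above 1 in 2 of the 5 libraries, those of 4 and 5 wk, so that the classes overlapped and neither was higher throughout. Granulosa-like cells held 60.7% of all Vcan UMIs, against 50.9% of all UMIs of any gene, and stromal-like cells held 28.6%.

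The share of granulosa-like cells with at least 1 Vcan UMI was 84.2% (exact binomial 95% interval 82.9 to 85.5) at 2 wk, fell to 30.3% (29.1 to 31.6) at 4 wk and was 50.8% (49.2 to 52.4) at 6 wk. In blood endothelial-like cells, which were taken as cells that do not make the granulosa matrix, the share was 4.38% to 13.6%, with a median of 2277 to 15214 UMIs per cell against 12828 to 17808 in the granulosa cells. With each cell thinned to 2000 UMIs, the range became 9.68% to 39.9% in granulosa-like cells and 0.787% to 8.33% in endothelial ones. At 4 wk, the thinned shares were 9.68% and 2.99%.

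Other classes held particular genes. Perlecan was highest in blood endothelial-like cells, whose walls rest on a basement membrane, at 433 to 671 CPM across libraries, above the 115 to 165 CPM of stromal-like cells in every library. These cells held 8.67% of the Hspg2 UMIs with 1.46% of all UMIs. Prelp separated the endothelia, at 119 to 241 CPM in lymphatic endothelial-like cells (4 libraries with at least 20 cells) and 3.33 to 12.3 CPM in blood endothelial-like cells. Osteoglycin reached 1276 to 2170 CPM in smooth muscle-like cells, which held 34.3% of its UMIs with 6.90% of all UMIs. Stromal-like cells, at 549 to 969 CPM, held the larger part, 54.9% of its UMIs with 27.1% of all UMIs. Biglycan stayed at 446 to 728 CPM in pericyte-like cells, in which Lum was at 17.7 to 33.0 CPM. Fibromodulin ran from 7.58 to 56.4 CPM in surface epithelial-like cells, with the top of that range above the 24.5 to 49.6 CPM of stromal-like cells.

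RNA set free by the dissociation can give every droplet a low level of the most abundant stromal transcripts. The counts can be set against those of the collagen genes Col1a1, Col1a2 and Col3a1. For every 100 UMIs of these collagen genes together, stromal-like cells held 21.4 to 53.7 UMIs of Dcn and granulosa-like cells 21.6 to 43.5. Hematopoietic-like cells, which are not known to make decorin, held 21.1 to 65.3. The ranges of Lum, Fmod, Bgn and Ogn in stromal-like and granulosa-like cells overlapped too. Library by library, granulosa-like values of Dcn, Lum and Fmod lay on either side of the stromal-like ones. The low levels of Dcn, Lum and Fmod in granulosa-like cells as a whole were thus not set apart from the stromal proportion. Those of Bgn and Ogn were above the stromal-like value in every library. At 2 wk Bgn was at 10.9 against 10.6, and Ogn at 8.71 against 7.77. At 5 wk Bgn was at 50.8 against 14.02, and Ogn at 55.6 against 14.8. At 6 wk both were below the hematopoietic-like values, at 21.3 against 24.3 and 35.3 against 37.6. So were Bgn at 3 wk, at 17.8 against 30.3, and Ogn at 2 wk, at 8.71 against 10.1. In the remaining libraries each was above the hematopoietic-like value. The cause of the excess over stromal-like cells was not tested. Vcan was at 90.5 to 259 per 100 collagen UMIs in granulosa-like cells and at 1.44 to 2.92 in stromal-like cells. Hspg2 was at 17.2 to 81.5 against 1.91 to 3.11, and Prelp at 2.94 to 5.39 against 0.189 to 1.24. For Vcan, Hspg2 and Prelp the ranges did not overlap.

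Within the granulosa lineage, cells were placed in primordial (685 cells), primary (2743), secondary (1775), antral (3949), remodeling (3267) and mitotic (2605) stages, and 3296 stayed unnamed. Clusters G4 (1453 cells), G8 (893) and G13 (526) stayed unnamed because their top genes marked another type. Those of G4 included the mitotic marker Top2a and those of G13 Mki67, so some cells with such markers lie outside the mitotic stage. Primary and secondary cells shared their leading markers and were told apart by the closer of the study's published cluster profiles, so the border between them is uncertain. The largest antral cluster, G2 with 1753 cells, met no marker list. It was named antral from the study's profile alone, at a correlation of 0.942, so that name is uncertain too. The primordial stage was cluster G11 alone, named by Gatm, Col18a1 and Cdkn1b, the fewest markers a name allowed. Its nearest profile of those compared, a primary one, correlated at 0.651, under the limit of 0.7, so the primordial name also rests on few markers. Over the 6 stages, 8 of 60 pairs of gene and stage were past 2-fold against the other staged cells in every library, against 3.94% of the pairs of all genes tested. All 8 were of the 7 genes with at least 200 UMIs in these cells, the minimum for that share, which Has2, Hapln1 and Fmod did not reach.

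Among the granulosa stages, versican was highest in primary or mitotic cells in every library. In primary granulosa cells it was at 411, 233, 153, 282 and 247 CPM, in mitotic cells at 426, 199, 98.8, 154 and 135 CPM, and in secondary cells at 283, 102, 86.4, 85.0 and 130.4 CPM. In antral cells it was at 298, 82.0, 25.0, 41.3 and 69.6 CPM, and in primordial cells at 74.3, 47.9, 45.8, 61.5 and 160.2 CPM. In antral cells G2 was the largest cluster up to 4 wk and G3 from 5 wk on. From 3 wk on, primary cells had the highest level of any stage in every library, and at 2 wk mitotic cells were slightly above them. The primary over other stages ratio was above 1 in 5 of 5 libraries, with a median of 3.18 (1.44 to 4.30), and did not pass 2-fold in each of them. None of the 10 genes was called in primary or secondary cells, against 4.18% and 2.12% of genes in either direction.

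Remodeling granulosa cells, named by markers such as Pik3ip1 and Cyp1b1, held the least versican from 3 wk on. The levels were 84.9, 13.6, 4.75, 9.31 and 9.51 CPM, and only the 2 wk value reached the range of other stages. The ratio to the other stages was 0.0769 (0.0682 to 0.252), lower in every library, against 2.1% of the 12477 genes tested. Pooled, the level was 9.93 CPM (exact Poisson 95% interval 9.02 to 10.9) in remodeling and 299 CPM (294 to 305) in primary cells. Different clusters made up this stage at different ages: cluster G9 held 89.0% and 70.7% of its cells at 2 and 3 wk, whereas from 4 wk on clusters G5 and G7 together held most of them, with 55.3%, 38.8% and 43.5% in G5 and 28.1%, 34.6% and 37.4% in G7.

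**Figure D2:**
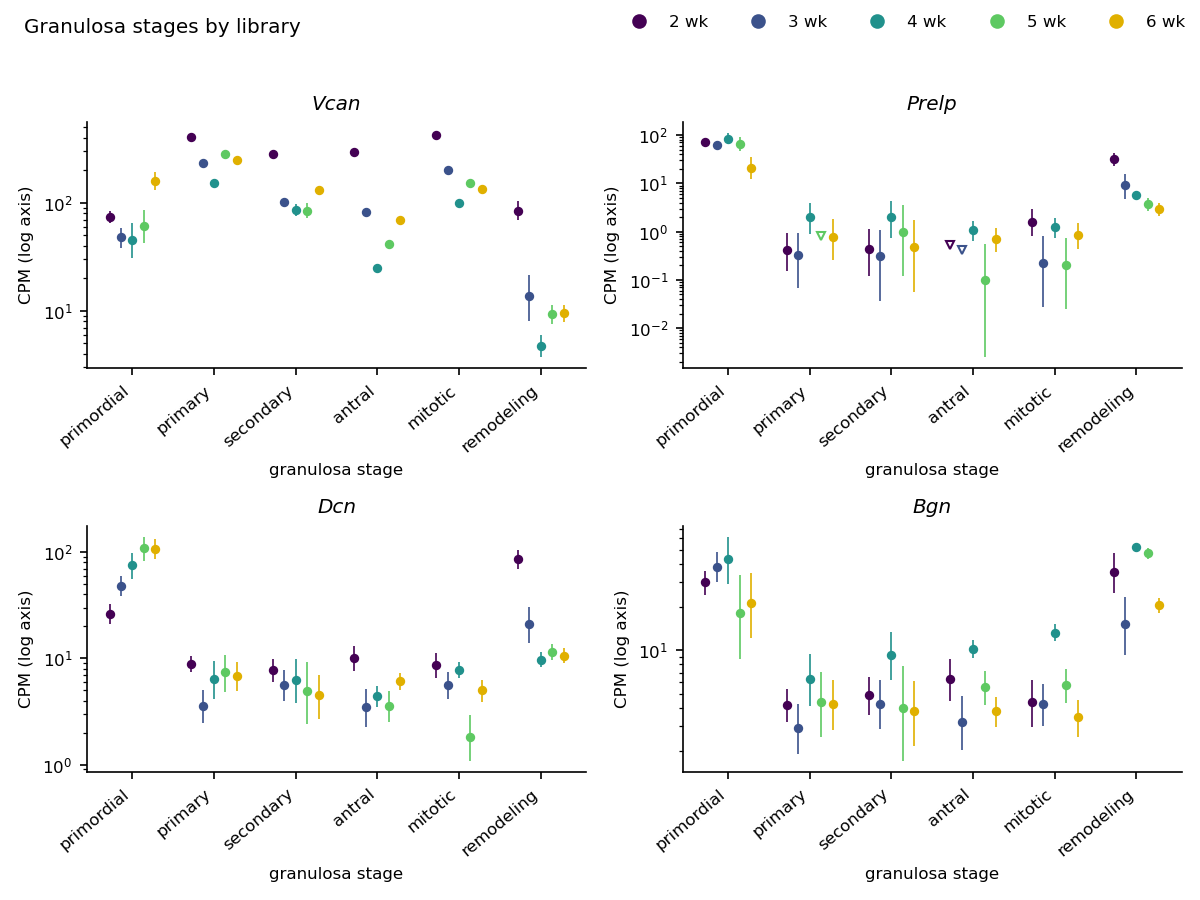
Levels in CPM (log axis) of Vcan, Prelp, Dcn and Bgn in the 6 granulosa stages, 1 point per library with exact Poisson 95% intervals, and open triangles where no UMI was counted, drawn at the level of 3 counts. Vcan drops in remodeling cells to 4.75 to 13.6 CPM from 3 wk on, and Prelp stands at 21.2 to 84.2 CPM in primordial cells.

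Prelp, which binds heparan sulfate at basement membranes, was highest in primordial cells among the granulosa stages of every library. It was at 72.0, 62.6, 84.2, 65.1 and 21.2 CPM there, at 0 to 2.03 CPM in the primary, secondary and antral stages, and at 0.204 to 1.61 CPM in the mitotic stage. No library of these stages overlapped the primordial range. Remodeling cells ran from 2.88 to 31.6 CPM, and their 2 wk value lay within the primordial range. The ratio to the other stages was 45.0 (16.8 to 109), called higher against 2.48% of genes. The share of primordial cells with a Prelp UMI was 18.3% to 44.8%, against 1.19% to 6.00% of hematopoietic-like cells, whose pooled median was 6619 UMIs per cell against 10434. The 6 surface epithelial markers, some of them keratins that granulosa cells also make, summed to 173 to 238 CPM in primordial and 171 to 233 CPM in primary cells, and Prelp in surface epithelial-like cells was at 23.7 to 36.2 CPM. Antral and mitotic cells were called lower for Prelp, with ratios of 0.0864 and 0.176, against 3.63% and 1.46% of genes. Both calls were lost when the hematopoietic-like level was subtracted, and that of mitotic cells also at the coarser clustering.

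Decorin in primordial cells was at 26.2, 47.9, 75.3, 108 and 107 CPM, while the summed level of the 7 stromal markers in the same cells was 95.5, 49.6, 42.8, 21.7 and 50.3 CPM. The Dcn values rose across the libraries to 5 wk as the marker values fell. The ratio to the other stages was 10.7 (2.34 to 17.9), called higher beside Prelp. The level was still below that of hematopoietic-like cells of the same library, at 213, 58.1, 352, 266 and 104 CPM, except at 6 wk, where the values were 107 and 104, and the call was lost with this level subtracted and with cells weighted equally. Whether free RNA accounts for it was not tested beyond these values.

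Remodeling cells were called higher for 3 small leucine-rich proteoglycans against 1.45% of genes. Biglycan was at 34.9, 15.1, 51.9, 47.2 and 20.5 CPM with a ratio of 4.99 (2.76 to 8.43), osteoglycin at 9.98, 20.4, 28.3, 44.4 and 35.0 CPM with a ratio of 4.80 (2.13 to 8.85), and Prelp at 31.6, 9.08, 5.77, 3.67 and 2.88 CPM with a ratio of 2.51 (2.21 to 4.45). The biglycan levels were below the 82.4 to 148 CPM of hematopoietic-like cells in every library, and those of osteoglycin below their 42.9 to 129 CPM. The 6 smooth muscle markers summed to 76.5 to 494 CPM in remodeling cells and to 14.5 to 91.5 CPM in the other stages, and the stromal markers to 34.0 to 165 CPM against 13.1 to 95.5 CPM. Their part in these ratios was not tested. Each of the 3 calls was lost or changed under some other processing: the Prelp ratio was 0.865 when the 10 genes were kept in the clustering, biglycan lost its call there too, and osteoglycin lost it with a stricter cell filter and with cells weighted equally.

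Perlecan was nearly even over the growing stages, at 16.9 to 29.2 CPM in primary, secondary, antral and mitotic cells. It was at 24.3 to 39.9 CPM in primordial cells and at 54.9, 46.2, 46.9, 66.4 and 47.5 CPM in remodeling cells. Every remodeling value was above every value of the other stages, but the ratio of 2.36 (1.84 to 2.81) did not pass 2-fold in each library.

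The hyaluronan synthase gene Has2 was barely counted in these granulosa cells. It does not stand for all hyaluronan synthases, since Has1 had 4659 UMIs in the series and Has3 had 368. Pooled, Has1 was at 0.831 to 2.21 CPM over the 6 stages and Has3 at 0.319 to 1.21 CPM. Hematopoietic-like cells were at 5.63 and 0.234 CPM. Of 522 Has2 UMIs in the series, 59 were in staged granulosa cells and none in primordial, primary or secondary cells, which allows up to 0.405, 0.0803 and 0.121 CPM. Antral cells held 31 UMIs, a level of 0.515 CPM (0.350 to 0.732). Mitotic cells held 20 UMIs and remodeling cells 8. Hapln1 had 14 UMIs over the 6 stages and Fmod 41, so that no stage pattern was detectable for either at this depth.

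Of the other genes of the pathway, 6 genes of hyaluronan synthesis and binding could be tested over the stages. In primary cells 3 of the 6 were lower, Hmmr, Itih2 and Itih5, against 3.43% of all genes. In remodeling cells 1 was higher, Itih2, against 1.45% of genes, and 1 lower, Hmmr, against 2.1%. Hmmr, a hyaluronan receptor that is also a mitotic spindle protein, was lower in each stage other than the mitotic one, where it was higher. The mitotic stage was named by cell-cycle genes, and Hmmr was a top gene of its clusters G6, G10 and G14. Its calls therefore restate the grouping and are no result on hyaluronan, also where counted above. The shares over all genes were 1.79% to 3.63% lower in those stages and 4.3% higher in mitotic cells. Of 4 versican-cleaving proteases, 1 was lower in primary and in secondary cells, Adamts5, against 3.43% and 2.12% of genes, and none was called in the other stages.

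In the mesenchyme, 19 of 80 pairs of gene and subtype were past 2-fold against the other named mesenchymal cells in every library, against 5.41% of the pairs of all genes, and 10 of these were calls of small leucine-rich proteoglycans in the Col14a1+ and late theca subtypes. The named subtypes were Tagln+ (4000 cells), Cxcl12+ (4232), Hoxd9+ (2415), early theca (1843), late theca (1816), mitotic (1611), Cd24a+ (1429) and Col14a1+ (756). The largest Tagln+ cluster, M0 with 2175 cells, best matched the Col11a1+ markers Col11a1, Ednrb and Foxp2. It was named Tagln+ from the study's cluster profile, at a correlation of 0.934, and no subtype was named Col11a1+. In the Cxcl12+ cells, cluster M5 with 1259 cells met no marker list and was named from the profile alone, at 0.897. Cluster M7 with 1038 cells met the Cxcl12+ markers, but its nearest profile was of the study's Col11a1+ cells, at 0.843. Cluster M6 with 1053 cells was also nearest to those, at 0.937, and stayed unnamed. The border of the Cxcl12+ group is thus uncertain.

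Has2 transcripts had their highest pooled levels in a pair of fibroblast groups. In Cd24a+ cells they were at 5.27, 2.28, 21.2, 15.5 and 7.72 CPM from 198 UMIs, and in Col14a1+ cells at 5.90, 4.63, 9.67, 21.5 and 4.43 CPM from 69 UMIs. The ranges of these groups overlapped, and their pooled levels, 9.82 CPM (8.50 to 11.3) and 9.39 CPM (7.31 to 11.9), lay within each other's counting error. Against the other subtypes, the ratio was 9.58 (3.18 to 18.9) in Cd24a+ cells and 6.22 (2.93 to 11.3) in Col14a1+ cells, both called higher, against 0.905% and 3.45% of the 12707 genes tested. Mitotic mesenchymal cells held 69 UMIs, at 2.04 CPM pooled, and Cxcl12+ cells 36 UMIs, at 1.01 CPM, and neither was called. Tagln+ cells held 4 UMIs and early theca 2 UMIs, and both were called lower, with ratios of 0.140 (0.118 to 0.347) and 0.205, in which libraries at 0 were set to 3 counts. These were called against 5.15% and 3.93% of genes, and the Tagln+ call was lost without the cells marked as doublets. The synthase gene Has1, which was not among the 10, was at 45.1 CPM in Cd24a+ and 93.2 CPM in Col14a1+ cells, pooled. In the class comparison, none of the theca-like, blood endothelial-like, hematopoietic-like, surface epithelial-like and rete ovarii-like cells held a Has2 UMI, which allows up to 0.124, 0.349, 0.703, 0.885 and 2.64 CPM.

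**Figure D3:**
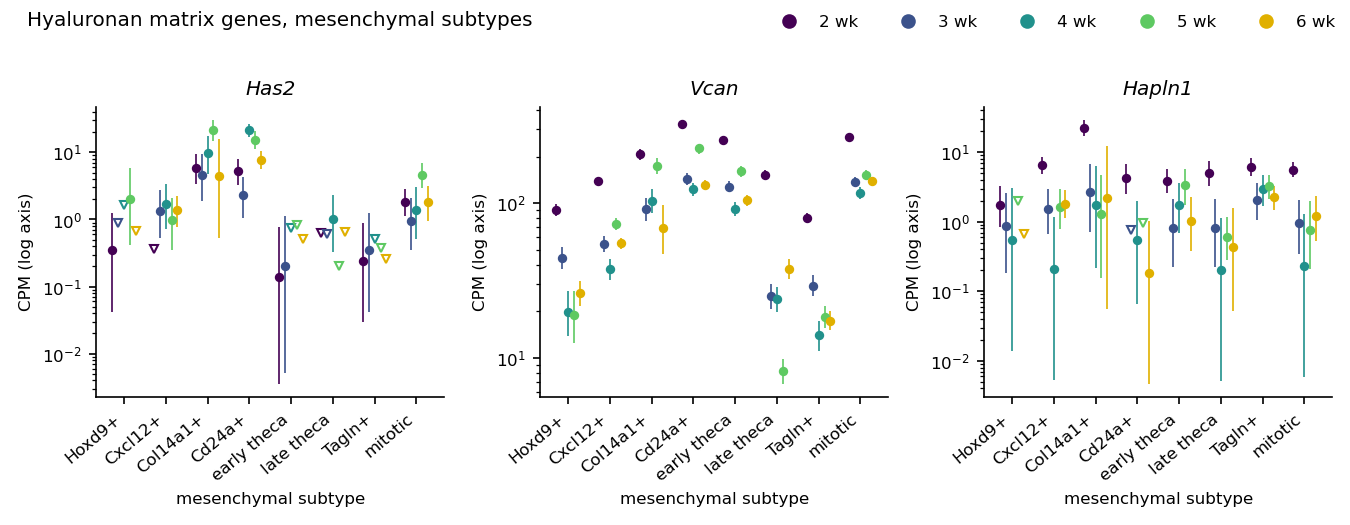
Levels in CPM (log axis) of Has2, Vcan and Hapln1 in the 8 mesenchymal subtypes, 1 point per library with exact Poisson 95% intervals, and open triangles where no UMI was counted, drawn at the level of 3 counts. Has2 is at 2.28 to 21.5 CPM in Cd24a+ and Col14a1+ cells, and Vcan is at 13.9 to 80.1 CPM in Tagln+ cells.

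Versican, the partner that binds the hyaluronan chain, ran at 326, 143, 123, 226 and 132 CPM in Cd24a+ cells, at 258, 128, 91.9, 161 and 104 CPM in early theca and at 268, 138, 117, 153 and 138 CPM in mitotic mesenchymal cells. These groups overlapped throughout. In Tagln+ cells it was at 80.1, 29.3, 13.9, 18.5 and 17.4 CPM, with a ratio of 0.225 (0.194 to 0.386), the only subtype called lower. Late theca went from 151 CPM at 2 wk to 8.17 CPM at 5 wk, the library in which cluster M9 made up 76.1% of it. Link protein was scarce, with 132 UMIs in Tagln+ and 70 in Col14a1+ cells. Of the latter, 61 came from the 2 wk library, at 22.5 CPM (17.2 to 28.9), and the later libraries held 1 to 4 each, and no subtype was called.

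Decorin, lumican and fibromodulin peaked in Col14a1+ cells, which also carry the adventitial genes Pi16 and Cd248 among the markers used to name them. Dcn was at 7024, 7205, 7908, 12216 and 10334 CPM, and no other subtype passed 4639 CPM in any library. Lum was at 1479, 1501, 1844, 2156 and 2034 CPM against at most 945 CPM elsewhere, and Fmod at 97.0, 170.0, 251, 74.9 and 224 CPM against at most 55.8 CPM. The groups did not overlap for any of these. The ratios were 7.05 (6.12 to 9.19) for Dcn, 6.81 (5.15 to 7.36) for Lum, 6.06 (4.80 to 9.19) for Fmod and 2.34 (2.02 to 2.44) for Bgn. Together with Has2, 5 of 10 genes were called higher there. The Bgn ratio was near the threshold and was lost under 4 alternatives. The 7 stromal markers, of which 3 are collagen genes, summed to 17692 to 39514 CPM in Col14a1+ cells and to 870 to 8726 CPM in the other subtypes.

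Osteoglycin followed another order. It was at 1309, 1423, 1467, 1839 and 2171 CPM in Tagln+ cells, in which the 6 smooth muscle markers summed to 18559 to 23253 CPM. In Cxcl12+ cells it was at 1181, 1285, 1072, 1552 and 1672 CPM. Hoxd9+ cells, at 642 to 1643 CPM, and Col14a1+ cells, at 736 to 1183 CPM, overlapped that range. M2 was the largest Cxcl12+ cluster in each library but that of 3 wk, where M5 was. Osteoglycin was low in Cd24a+ cells, at 214, 86.1, 144, 199.9 and 239 CPM, and in mitotic cells, at 144, 108, 159, 124 and 217 CPM. Tagln+ cells were called higher with a ratio of 2.86 (2.42 to 3.59), against 2.54% of genes, but not with cells weighted equally. Cd24a+ cells were called lower at 0.192 (0.120 to 0.313), against 4.1% of genes. Mitotic cells were called lower at 0.161, and for decorin at 0.448, against 2.73% of genes. Cd24a+ cells were thus among the highest subtypes in Has2 and among the lowest in Ogn.

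**Figure D4:**
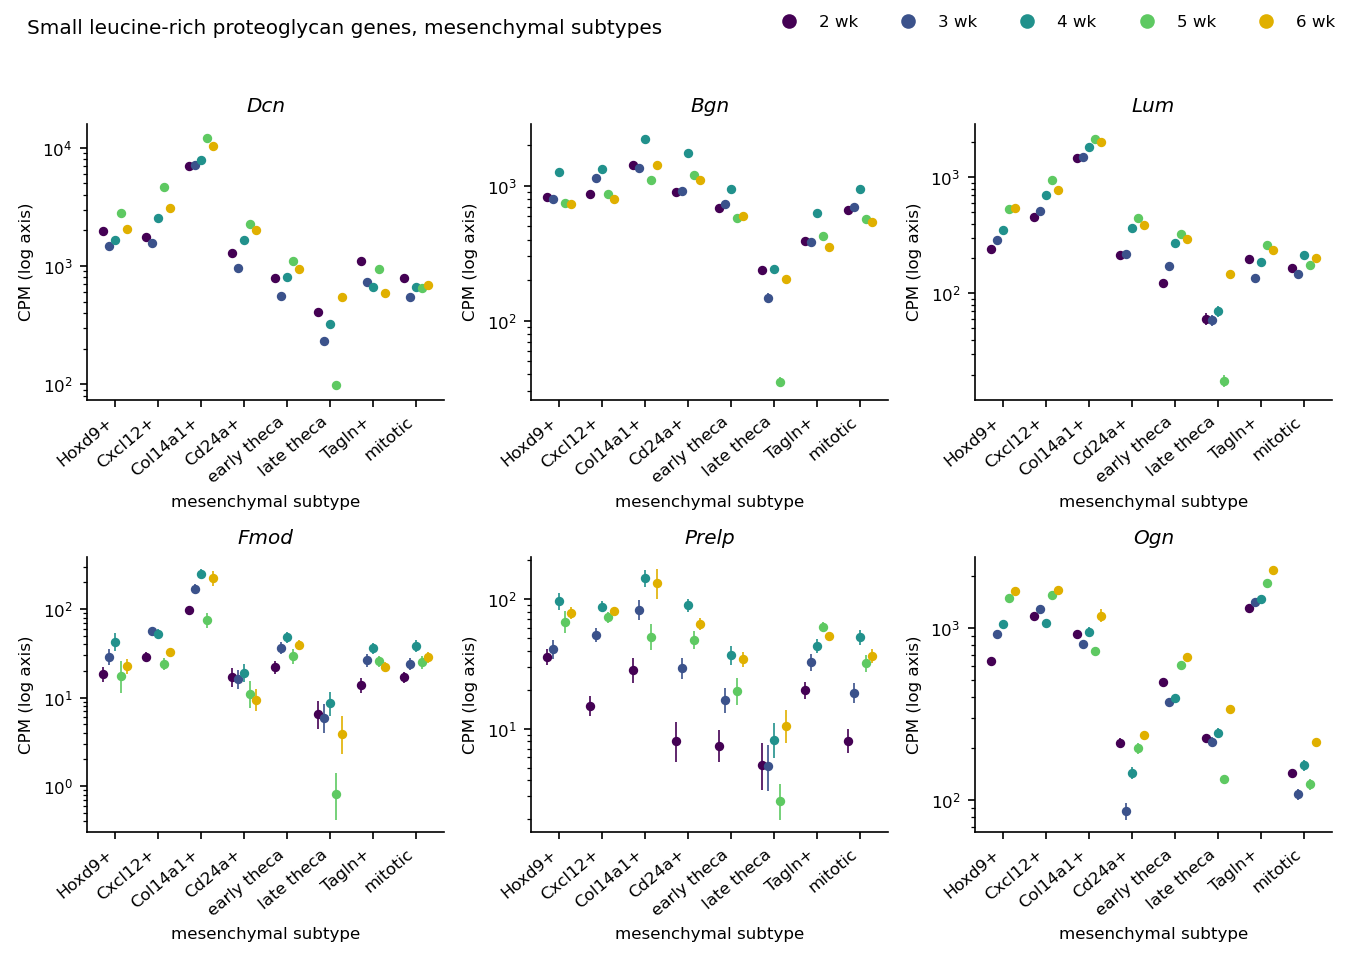
Levels in CPM (log axis) of Dcn, Bgn, Lum, Fmod, Prelp and Ogn in the 8 mesenchymal subtypes, 1 point per library with exact Poisson 95% intervals. Dcn, Lum and Fmod are highest in Col14a1+ cells in every library, Ogn is highest in Tagln+ and Cxcl12+ cells, and late theca cells are low in all 6 genes.

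Late theca, the group named for the steroid-making cells around the follicle, was called lower for all 6 small leucine-rich proteoglycans, against 3.69% of genes. The ratios were 0.206 for Dcn, 0.194 for Lum, 0.210 for Bgn, 0.154 for Fmod, 0.151 for Prelp and 0.306 for Ogn. Dcn was at 409, 231, 325, 99.2 and 551 CPM there, and at 795, 562, 815, 1114 and 937 CPM in early theca, the less mature cells of the layer. The ranges did not overlap. Cluster M17, rich in called doublets, held 6.26% to 33.6% of late theca, and without it the ratios were 0.153, 0.124, 0.124, 0.0609, 0.0217 and 0.220 in the same gene order, all still called. The 7 theca markers summed to 1640, 751, 1667, 9742 and 1011 CPM in late theca and the 7 stromal markers to 3861, 2385, 2350, 870 and 3568 CPM, so that the theca markers were the higher sum at 5 wk only. Over the other subtypes the theca markers summed to 4.79 to 154 CPM. The 8 granulosa markers summed to 757 to 1194 CPM in late theca and to 129 to 548 CPM in the other subtypes. Hoxd9+ and Cxcl12+ cells had none of the 10 genes called, against 4.45% and 3.9% of genes in either direction.

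Perlecan varied little among mesenchymal cells. It was highest in Col14a1+ cells, at 226, 277, 272, 216 and 219 CPM, and lay between 72.8 and 183 CPM in the others. The ranges did not overlap, yet the ratio of 1.90 (1.67 to 2.00) passed 2-fold in 1 library only and was not called.

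The wider gene families followed some of these patterns, but their genes were not removed from the clustering and could help shape the groups. Over the stromal to granulosa comparison, 4 of 5 tested genes of the other small leucine-rich proteoglycans were higher, Aspn and Ecm2 among them, with a median ratio of 4.88, against 10.9% of all genes. Omd went the other way, at 49.4 CPM in granulosa-like and 25.5 CPM in stromal-like cells. Also higher in stromal-like cells were 5 of 11 genes of hyaluronan synthesis and binding, and 3 of 5 versican-cleaving proteases, among them Adamts1 and Adamts4. The former include Itih5, of the family of heavy chains that attach to hyaluronan, and Tnfaip6, which transfers such chains. In Col14a1+ cells 2 of 6 other small leucine-rich proteoglycans and 2 of 5 proteases were higher, against 3.45% of genes. Of the 11 hyaluronan genes 1 was higher, Tnfaip6. In mitotic mesenchymal cells 5 of 6 of the other small leucine-rich proteoglycans were lower, with a median ratio of 0.252, against 2.73% of genes.

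Ages were compared within each of the 14 stages and subtypes, as 4 over 2 wk, where both libraries came from the same version of the counting software, and as 6 over 2 wk, where the version differed. A ratio was called when past 2-fold with a counting interval off 1. Of 280 combinations of gene, group and age, 84 were called. Some had too few counts for a ratio. At 4 and 6 wk, Has2 gave a ratio in 7 and 5 of the 14 groups, Hapln1 in 8 and 8 and Fmod in 11 and 8. Summed over the groups, 8.11% of the ratios of all genes were called at 4 wk, 5.16% lower and 2.95% higher, and 5.26% at 6 wk, 2.8% lower and 2.46% higher. The share varied with the group, from 2.99% to 8.32% lower and 0.687% to 6.24% higher at 4 wk, and from 1.19% to 7.9% lower and 0.816% to 6.79% higher at 6 wk. These shares are over ratios with at least 200 UMIs, which no ratio of Has2 or Hapln1 reached. Of the 28 combinations of group and age for each other gene, between 11 (Fmod) and 27 (Vcan) reached it. The 84 calls include ratios below that minimum, to which the shares do not apply. Both comparisons share the 2 wk library, and the 14 groups of an age share 1 library.

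Versican was lower after 2 wk almost everywhere. At 4 wk it was below the 2 wk level in all 14 groups and called lower in 12, with a median ratio of 0.287 and a lowest of 0.0560 in remodeling cells. The groups not called were primordial granulosa cells, at 0.616, and Col14a1+ cells, at 0.501. In Hoxd9+ cells the 4 wk ratio turned to 3.86 with the hematopoietic-like level subtracted. At 6 wk it was called lower in 11 groups, with a median of 0.363. Primary granulosa cells, at 0.601, and mitotic mesenchymal cells, at 0.515, were not called. Primordial cells went the other way, at 2.16 (1.73 to 2.69), a call that was lost with the stricter cell filter and with the 10 genes kept in the clustering. Vcan was also at its highest at 2 wk in cells with little of it, 62.8, 33.7, 25.2, 8.81 and 11.3 CPM in blood endothelial-like and 96.9, 32.8, 17.6, 37.9 and 26.9 CPM in hematopoietic-like cells. The part of free RNA in the 2 wk levels of low groups was not tested.

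**Figure D5:**
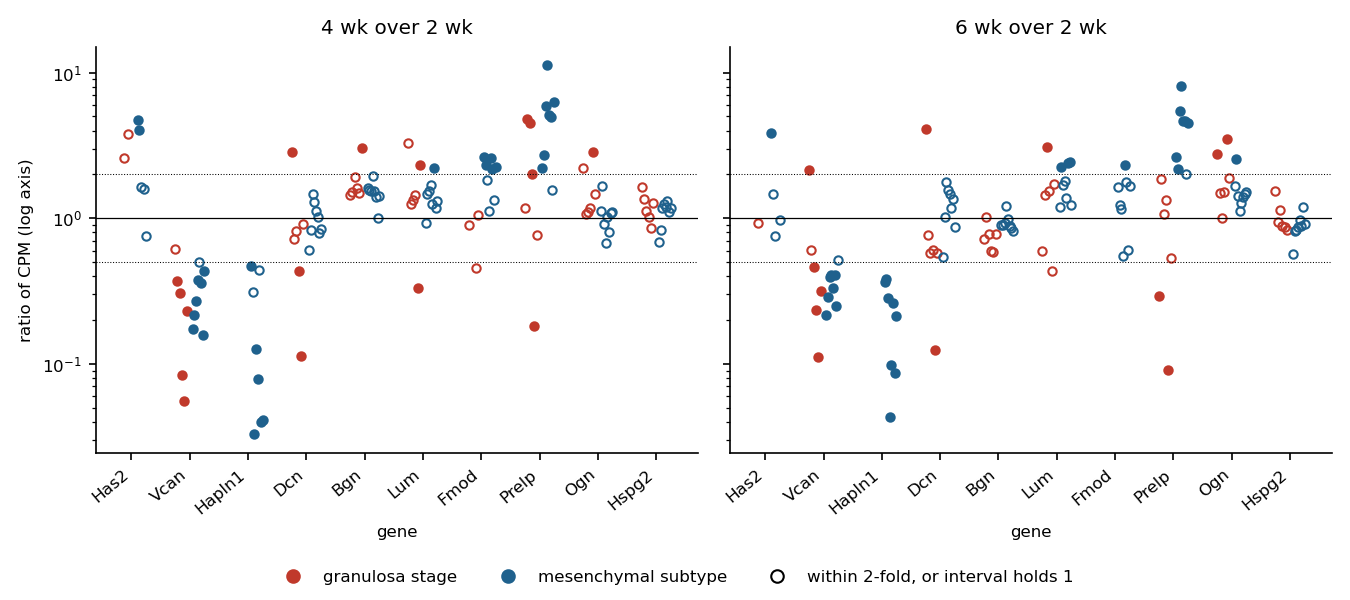
Ratio of CPM (log axis) at 4 over 2 wk and at 6 over 2 wk for each of the 10 genes, 1 point per granulosa stage or mesenchymal subtype, filled where called and open where not. Vcan lies below 1 in every group but primordial cells at 6 wk, Hapln1 below 1 in each of 8 groups, Prelp mostly above 1, and Hspg2 has no filled point.

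Link protein moved the same way as versican. It had enough counts for a ratio in 8 groups, all mesenchymal, and was lower in each of the 8 at both ages, with 6 called at 4 wk and 8 at 6 wk and ratios of 0.0329 to 0.471. Of the whole ovary, Hapln1 took 2.95 CPM at 2 wk and 0.357 to 0.990 CPM afterwards. The counts behind the later levels were low, 14 UMIs in the stromal-like cells of 4 wk against 253 at 2 wk.

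Has2 was called higher in a pair of groups. Of the 7 groups with enough counts for a ratio at 4 wk, 6 were above 1 and 2 were called, and of the 5 at 6 wk 2 were above 1 and 1 was called, with none called lower at either age. In Cd24a+ cells the ratio at 4 wk was 4.02 (78 UMIs against 21). Cxcl12+ cells had no Has2 UMI at 2 wk. With that level set to 3 counts, their ratios were 4.74 at 4 wk and 3.83 at 6 wk, which are not lower limits. The Cxcl12+ levels were low, 1.33, 1.70, 0.969 and 1.37 CPM from 3 to 6 wk. Col14a1+ cells were at 1.64 and 0.751 at the 2 ages and mitotic mesenchymal cells at 0.755 and 0.978, each with a counting interval that included 1. In Cd24a+ cells the ratio at 6 wk was 1.47, not called. The 3 wk level there, 2.28 CPM, was below the 2 wk level of 5.27 CPM, so the ages did not form 1 steady course.

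Prelp was called higher at both ages in 7 of the 8 mesenchymal subtypes, all but late theca. It was called higher at 4 wk in 10 of 14 groups and at 6 wk in 7, with median ratios of 3.60 and 2.09 over the 14 groups. The highest was in Cd24a+ cells, from 8.03 CPM at 2 wk to 29.4, 89.9, 48.7 and 64.5 CPM, a ratio of 11.2 (7.78 to 16.6) at 4 wk. Every later library was above the 2 wk library there. Of the called granulosa groups at 4 wk, primary, secondary and antral cells rested on 8, 6 and 20 UMIs at 4 wk, and their levels stayed at or under 2.03 CPM. The antral call was lost under 4 alternatives and the secondary call under 3. Remodeling cells were called lower at both ages, with ratios of 0.182 and 0.0912, and primordial cells at 6 wk, with 0.294 (0.166 to 0.487), a call lost with the stricter cell filter. With the 10 genes kept in the clustering, the remodeling ratio turned to 1.30 at 4 wk and was 0.374, no longer called, at 6 wk. In remodeling cells the pooled Prelp level was 19.0 CPM in cluster G9, 1.17 CPM in G5 and 2.62 CPM in G7, and G9 was the cluster that held most of these cells at 2 and 3 wk only.

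Of the other small leucine-rich proteoglycans, fibromodulin was called higher at 4 wk in 5 mesenchymal subtypes, with ratios from 2.18 in early theca to 2.63 in Tagln+ cells, but at 6 wk only in Col14a1+ cells, at 2.31. Decorin was called higher in primordial cells, at 2.87 and 4.09, lower in remodeling cells, at 0.113 and 0.124, and lower in antral cells at 4 wk, at 0.437, and it was called in no mesenchymal subtype. Lumican was called higher in early theca at both ages, at 2.22 and 2.39, and at 6 wk also in late theca, at 2.43, in Hoxd9+ cells, at 2.24, and in secondary granulosa cells, at 3.08 from 13 and 9 UMIs, a call lost at the coarser clustering. At 4 wk it was also called higher in mitotic granulosa cells, at 2.32, and lower in remodeling cells, at 0.333. The former turned to 0.808 with the 10 genes kept in the clustering. In the granulosa stages called, Dcn was at most 108 CPM and Lum at most 6.66 CPM. Hematopoietic-like cells held 58.1 to 352 CPM of Dcn and 10.1 to 74.7 CPM of Lum. The part of free RNA in these calls was not tested. Biglycan was above its 2 wk level in 14 of 14 groups at 4 wk, with 1 called, mitotic granulosa cells at 3.02 (2.06 to 4.59), lost with cells weighted equally and with the 10 genes kept in the clustering, and in 2 of 14 at 6 wk, with none called. Osteoglycin was called higher in remodeling cells at both ages, at 2.83 and 3.51, and at 6 wk also in Hoxd9+ cells, at 2.56, and in primordial cells, at 2.77, where the call was lost with the stricter cell filter. Perlecan was called in no group at either age, with ratios from 0.564 to 1.64.

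The likeness of each gene to all others was described by Pearson's r of log2(CPM + 1) over 96 profiles of 20 groups, which share libraries and depth, among 10968 genes. Dcn and Fmod had Col1a1 as their nearest gene, at 0.936 and 0.905, and Lum had Clmp, at 0.950, with Col1a1 next at 0.948. Bgn was nearest to Mxra8, at 0.957, and Prelp to Thsd4, at 0.847. Has2 had weaker neighbours, Abca8a at 0.705, Svep1 at 0.697 and the sister synthase Has1 at 0.691. Vcan had the weakest, Hsd11b2 at 0.637. Among the 10 genes, Dcn and Lum were at 0.941 and Dcn and Bgn at 0.915, while Vcan was between -0.342 and 0.285 with each of the others.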

How the data were processed

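The deposited files hold counts: per the labels and the study's methods, the authors took the reads of each 10x 3′ library through Cell Ranger on mm10 (GRCm38), in release 3.1.0 for 2, 3 and 4 wk and a later release for 5 and 6 wk. The tables give UMIs for each gene in each cell, not normalized. Live cells had been sorted after trypsin digestion, and ages were taken from the labels, with 1 library each. All barcodes of the filtered tables were used. The members, gene lists and comparisons were chosen with earlier results of these data known. Of the other pathway genes, at most 4 per list were named, by their UMIs, apart from those behind a count of 5 or fewer, which were named after their values were seen.

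Libraries were integrated in Seurat 5.3.0 (R 4.3.3) on 2000 variable genes without the 10 genes, with 30 principal components and a resolution of 1. Clusters were named from fixed markers, or, where these did not decide, from the study's cluster profiles at a correlation of at least 0.7. The limits for naming were set after the clusters were seen. A name needed 3 markers, each in at least 10% of cells and 1.5-fold above the rest. Clusters with a low UMI count, mostly doublets by Scrublet, mostly 1 library, or with top genes that marked another type stayed unnamed. Scrublet marked 162 to 555 cells per library, which stayed in. Barcodes shared between libraries carried profiles that correlated like those of shuffled pairs.

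CPM were computed from UMIs summed over the cells of a group and carry exact Poisson 95% intervals. Shares have exact binomial intervals, and age ratios an exact interval given the sum of both counts. All cover counting error only. Classes, stages and subtypes were called when past 2-fold the same way in each library with at least 20 cells, and ages when past 2-fold with an interval off 1. A level of 0 was set to that of 3 counts, and no ratio was given where that left no bound. Shares called over all genes used those with at least 200 UMIs. Scripts (Python 3.11.15, scipy 1.17.1, scanpy 1.11.5) were tested on simulated data. Alternatives were the 10 genes kept in the clustering, a resolution of 0.6, doublets left out, a stricter cell filter, cells weighted equally, totals without mitochondrial and ribosomal genes, subtraction of the hematopoietic-like level, a minimum of 50 UMIs and a 1.5-fold threshold. The nearest genes of Ogn and Hspg2 are not reported here.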

Additional observations from a re-analysis of the deposited data

Results flagged for a closer look

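For 4 genes, 2 groups moved in opposite directions with age in the same libraries, each with a counting interval off 1. The difference was not tested in any of these, since each age was 1 library. Decorin was higher in primordial granulosa cells and lower in remodeling cells, with ratios of 2.87 and 0.113 at 4 over 2 wk and of 4.09 and 0.124 at 6 over 2 wk. Prelp was higher in Cd24a+ mesenchymal cells and lower in remodeling granulosa cells, at 11.2 and 0.182 at 4 wk and at 8.04 and 0.0912 at 6 wk, but with the 10 genes kept in the clustering the remodeling ratio at 4 wk was 1.30. Lumican at 4 wk was 2.32 in mitotic and 0.333 in remodeling granulosa cells, and the former was 0.808 with the genes kept. Versican at 6 wk was 2.16 in primordial and 0.112 in remodeling cells. The remodeling cells of 2 wk were 109 in number and 89.0% of them were of cluster G9, which held 16.6% at 4 wk and 19.1% at 6 wk. The part of this change in make-up was not tested. Dcn was at 26.2 to 108 CPM in primordial and 9.69 to 85.7 CPM in remodeling cells, against 58.1 to 352 CPM in hematopoietic-like cells. Lum was at 0.570 to 2.71 CPM in mitotic and 1.51 to 6.66 CPM in remodeling cells, against 10.1 to 74.7 CPM in hematopoietic-like cells. The part of free RNA was not tested either.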

How the results depend on the processing

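Of the 10 genes, 9 were called between stromal-like and granulosa-like cells, and 8 or 9 under every alternative run. The 8 calls over granulosa stages became 3 with the hematopoietic-like level subtracted and 13 at 1.5-fold, and the 19 over mesenchymal subtypes became 29 at 1.5-fold. The 84 age calls ranged from 65 with that subtraction to 121 at 1.5-fold, within 1.5 times the main count. Of the 120 single calls, 116 kept their direction and call without doublets, 114 with the stricter cell filter, 110 with cells weighted equally, 119 without mitochondrial and ribosomal genes and 120 at the minimum of 50 UMIs. Where a value could be had, 104 did so at a resolution of 0.6, 95 with the 10 genes kept in the clustering and 88 with the subtraction. With the genes kept, Prelp in remodeling cells turned to a ratio of 0.865 and to 1.30 at 4 over 2 wk, and Lum in mitotic granulosa cells to 0.808. With the subtraction, Vcan in Hoxd9+ cells turned to 3.86 at 4 over 2 wk. The cause was not tested. Leaving out the late theca cluster richest in doublets, an alternative chosen after seeing the data, cost 1 call.

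No secondary stage and no early theca came out with the genes kept, and no early theca at a resolution of 0.6. No paired analysis was possible because each age was 1 library. The age of a library, its preparation and, for 5 and 6 wk, its counting software cannot be told apart. Depth limits Has2 and Hapln1 most, with 522 and 653 UMIs over the series.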
